A study of Mus musculus with 2 samples.

Results

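To follow the other regulatory arms of protein phosphatase 2A (PP2A) when *Ppp2r5d* was knocked down, the genes of the B55 subunits (*Ppp2r2a*, *Ppp2r2b*, *Ppp2r2c* and *Ppp2r2d*), of the B'' subunits (*Ppp2r3a* and *Ppp2r3c*) and of the striatins (*Strn*, *Strn3* and *Strn4*) were read from a gene expression microarray of mouse cardiomyocytes (MCMs). These 9 genes were chosen by name, with earlier results of these data known. Every probe that was not a control and carried one of the names was taken. The 9 genes had 21 probes, out of 56605 probes and 37074 gene names on the array. MCMs are cultured cells that were purchased and passaged. The labels give no strain, sex or age for them. Of these cells, 1 culture was transfected with a negative control siRNA (siRNA-NC) and 1 with an siRNA against *Ppp2r5d* (siRNA-*Ppp2r5d*), both with Lipofectamine RNAiMAX. Both cultures were in DMEM with fetal bovine serum, were given glucose-free medium 48 h after transfection and were collected at 64 h. The RNA of each culture carried the dye Cyanine 3 on 1 array. With 1 array per condition no difference has a replicate check, no p-value was computed, and an effect of the siRNA cannot be told apart from any other difference between the cultures.

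PP2A is a serine/threonine phosphatase built from a catalytic subunit, a scaffold subunit and 1 exchangeable regulatory subunit, which binds the core and selects its substrates. *Ppp2r5d* encodes a regulatory subunit of the B56 (B') family, and the B55, B'' and striatin families use the same core. B55 subunits take part in mitotic exit and in the dephosphorylation of pocket proteins and tau, B'' subunits bind calcium through EF hands, and striatins are the scaffolds of the STRIPAK complex, in which PP2A is held together with MST kinases and their partners.

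The values were background-corrected intensities, the brightness of a spot above its surroundings. Leaving out controls, the array has 59305 spots, of which 35544 were well above background with siRNA-NC and 35174 with siRNA-*Ppp2r5d*, with none saturated. A log2 fold change is siRNA-*Ppp2r5d* minus siRNA-NC after each array was divided by its own 75th percentile, an intensity of 593 with siRNA-NC and 519 with siRNA-*Ppp2r5d*, so that a gene with equal intensity on both arrays has a log2 fold change of 0.19. Each probe of the 9 genes had 1 spot. Probes that were spotted repeatedly give the error of a spot, which does not cover the error of a culture. The median SD of the log2 fold change between spots of a probe was 0.21 at intensities of 15 to 100 (8 probes), 0.059 at 100 to 1000 (10 probes) and 0.035 above 1000 (275 probes). The targeted *Ppp2r5d* had an intensity of 4701 with siRNA-NC and 676 with siRNA-*Ppp2r5d*, a log2 fold change of -2.60, or 6.08-fold lower. Of the cardiomyocyte markers, 7 of 12 were well above background on both arrays, among them *Tnnt2*, *Tnni3*, *Myh7*, *Ttn* and *Actc1*, while *Myh6*, *Actn2*, *Ryr2*, *Myl2* and *Pln* were not. The summed intensity of the 12 markers was 10695 with siRNA-NC and 10034 with siRNA-*Ppp2r5d*. This sum and those below take every probe of the listed markers. They are not scaled between the arrays, whose 75th percentiles were 593 and 519. The fibroblast markers, of which 6 of 8 were well above background on both arrays, summed to 397178 and 355891. The smooth muscle markers (4 of 4 read on both arrays) summed to 174785 and 156186, the macrophage markers (2 of 3) to 2127 and 1482 and the endothelial markers (1 of 4) to 82.0 and 74.9. The log2 fold changes of single markers ranged from -0.19 to 0.89 for cardiomyocytes, -0.31 to 0.63 for fibroblasts, -0.38 to 2.41 for smooth muscle and -0.77 to 0.13 for macrophages. The part of other cell types in the members' values was not tested. In such bulk RNA, fewer cells of a type and less RNA per cell cannot be told apart.

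Of the 21 probes, 16 were well above background on both arrays, 1 on the siRNA-*Ppp2r5d* array alone and 4 on neither. All probes have 60 bases. Sequences are printed for those probes that bear on how a gene was read, namely 3 probes whose bases lie on both sides of an intron, which read spliced mRNA, and 2 probes whose bases resemble probes of other genes on the array. The genomic intervals are those of the scanner files, on mouse build mm9, and each sequence runs 5' to 3' along the transcript. Capitals mark bases covered by at least 50% of the matches to probes or promoters of other genes, and a sequence without capitals had no such match.

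*Ppp2r2d*, target NM_026391, chr7:146065961-146068191, plus strand: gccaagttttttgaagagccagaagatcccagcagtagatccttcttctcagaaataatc
*Strn3*, target NM_052973, chr12:52728858-52730410, minus strand: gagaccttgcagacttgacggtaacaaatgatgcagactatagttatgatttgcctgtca
*Strn4*, target NM_133789, chr7:17423958-17425108, plus strand: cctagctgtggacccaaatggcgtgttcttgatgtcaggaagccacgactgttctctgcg
*Strn4*, target ENSMUST00000123510, chr7:17419939-17419998, plus strand: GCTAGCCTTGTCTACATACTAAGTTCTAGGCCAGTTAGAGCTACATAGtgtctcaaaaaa
*Ppp2r2a*, target NM_001205188, chr14:67647755-67647814, minus strand: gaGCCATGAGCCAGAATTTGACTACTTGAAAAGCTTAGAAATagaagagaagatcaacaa

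The first 3 sequences spread over genomic intervals of 2231, 1553 and 1151 bases. The *Strn4* probe for ENSMUST00000123510 matched 41 promoter windows of other genes, 0.125% of the 32851 windows of RefSeq (GRCm38.p6). A match is at least 40 aligned bases with at least 75% identity on either strand. The other 20 probes matched no promoter of another gene. The same *Strn4* probe matched 9 probes of other genes, and the *Ppp2r2a* probe for NM_001205188 matched 1, of *Trim59*, with 80.5% identity over 41 bases. Whether RNA of other genes added to the signal of these probes was not tested. The exon or untranslated region of each probe was not analysed here.

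The B55 genes split into a pair that was read on both arrays and a pair that was read on neither. *Ppp2r2a* (B55 alpha) and *Ppp2r2d* (B55 delta), the widely expressed members of the family, had log2 fold changes of 0.17 and 0.11, or 1.12-fold and 1.08-fold higher. *Ppp2r2b* and *Ppp2r2c*, the B55 beta and gamma genes known for their expression in brain, were not well above background.

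For *Ppp2r2a*, the probe for NM_028032 (chr14:67634546-67634605) had an intensity of 8336 with siRNA-NC and 8994 with siRNA-*Ppp2r5d*, a log2 fold change of 0.30. The probe for NM_001205188 had 142 and 144, a log2 fold change of 0.22. The probe for BC054850 (chr14:67637656-67637715) had 62.1 and 53.5, a log2 fold change of -0.024. Only the last of these probes was dimmer with siRNA-*Ppp2r5d*, and the probes of *Ppp2r2a* spread over 0.33 on the log2 scale, more than the value of the gene. The probes lie within 13269 bases of the minus strand. The *Trim59* probe that the one for NM_001205188 matched had a log2 fold change of -0.44.

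*Ppp2r2d* had 2 probes that lay closer together in value. The probe at chr7:146074348-146074407 had an intensity of 7613 with siRNA-NC and 7293 with siRNA-*Ppp2r5d*, a log2 fold change of 0.13. The intron-spanning probe had 460 and 426, a log2 fold change of 0.082. Both probes were dimmer with siRNA-*Ppp2r5d* as measured and above 0 after scaling, and they differed by 0.048 on the log2 scale.

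The 3 *Ppp2r2b* probes had intensities of 3.05 to 3.07 with siRNA-NC and 2.67 to 2.83 with siRNA-*Ppp2r5d*. The *Ppp2r2c* probe, for NM_172994 at chr5:37346000-37346059, had 3.00 and 2.77. These signals lay under the lowest signal well above background, 14.9 with siRNA-NC and 13.5 with siRNA-*Ppp2r5d*, so no fold change is given for either gene.

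**Figure D1:**
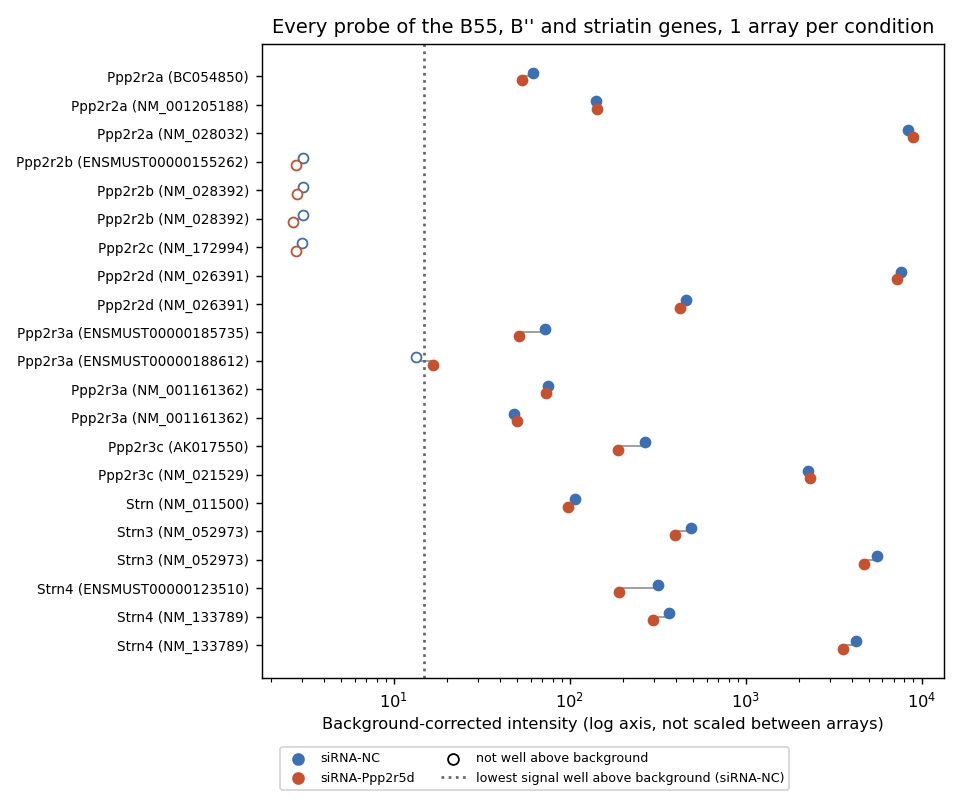
Background-corrected intensity of each of the 21 probes (horizontal axis, log scale, not scaled between arrays), with 1 point per array for each probe and open points where the probe was not well above background. The *Ppp2r2b* and *Ppp2r2c* points lie left of the dotted line at 14.9, the lowest signal well above background with siRNA-NC, and the widest gaps belong to the *Strn4* probe for ENSMUST00000123510 (318 and 192) and the *Ppp2r3c* probe for AK017550 (267 and 188).

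Both B'' genes of the set had values near 0. *Ppp2r3a*, whose products include the B'' subunits PR72 and PR130, had a log2 fold change of 0.03. *Ppp2r3c*, which encodes the B'' subunit G5PR, had a log2 fold change of -0.043. In both genes the probes differed among themselves by more than 0.5 on the log2 scale.

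*Ppp2r3a* was read at low intensity by 4 probes spread over 103961 bases of the minus strand of chromosome 9. The 2 probes for NM_001161362 had 75.8 and 73.3 (chr9:101010177-101010236) and 48.6 and 50.4 (chr9:101114078-101114137), log2 fold changes of 0.14 and 0.25. The probe for ENSMUST00000185735 (chr9:101099796-101099855) had 72.2 with siRNA-NC and 51.3 with siRNA-*Ppp2r5d*, a log2 fold change of -0.30, or 1.23-fold lower. The probe for ENSMUST00000188612 (chr9:101026812-101026871) had 13.4 with siRNA-NC, not well above background, and 16.8 with siRNA-*Ppp2r5d*, which is at least 1.28-fold higher. The probes of *Ppp2r3a* thus pointed both ways, by 0.55 on the log2 scale between those read on both arrays, at intensities where spots of 1 probe had a median SD of 0.21 and the widest SD was 0.32.

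*Ppp2r3c* had 1 probe in each direction. The probe for NM_021529 (chr12:56382500-56382559, minus strand) had 2266 with siRNA-NC and 2320 with siRNA-*Ppp2r5d*, a log2 fold change of 0.23. The probe for AK017550 (chr12:56397734-56397793) had 267 and 188, a log2 fold change of -0.31, or 1.24-fold lower. The difference of 0.54 between them was larger than the widest SD between spots at these intensities, 0.14, and the mean of -0.043 describes neither probe.

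Among the striatins, *Strn3* and *Strn4* were below 0 with every probe, and *Strn* was above it. *Strn*, the founding striatin, had 1 probe (NM_011500, chr17:79053936-79053995, minus strand) and an intensity of 107 with siRNA-NC and 97.9 with siRNA-*Ppp2r5d*, a log2 fold change of 0.069. This probe, like those of the other striatins, was dimmer with siRNA-*Ppp2r5d* as measured, and it was above 0 only after scaling. Near its intensity the median SD between spots was 0.21 (15 to 100) and 0.059 (100 to 1000). *Strn4* (zinedin) had the lowest value of the 7 genes read on both arrays, a log2 fold change of -0.23, or 1.18-fold lower. *Strn3* (SG2NA) had -0.082, or 1.06-fold lower.

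The *Strn3* probe at chr12:52709973-52710032 had 5575 with siRNA-NC and 4723 with siRNA-*Ppp2r5d*, a log2 fold change of -0.047. The intron-spanning *Strn3* probe had 491 and 396, a log2 fold change of -0.12. The *Strn3* probes lay 0.07 apart, within the spread between spots at the intensity of the dimmer one, up to 0.14. *Strn4* had an intron-spanning probe of 367 and 296, a log2 fold change of -0.12, and a bright probe at chr7:17426192-17426251 of 4262 and 3600, a log2 fold change of -0.051. The remaining *Strn4* probe, for ENSMUST00000123510, had 318 with siRNA-NC and 192 with siRNA-*Ppp2r5d*, a log2 fold change of -0.53, or 1.45-fold lower, the largest difference of any of the 16 probes. This is the *Strn4* probe with bases in common with other genes. Of the 9 probes it matched, 7 were well above background on both arrays, with log2 fold changes from -0.27 to 0.24, a median of 0.11, and 2 below 0. With the *Strn4* probes for RefSeq mRNAs alone, the log2 fold change of *Strn4* was -0.085.

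**Figure D2:**
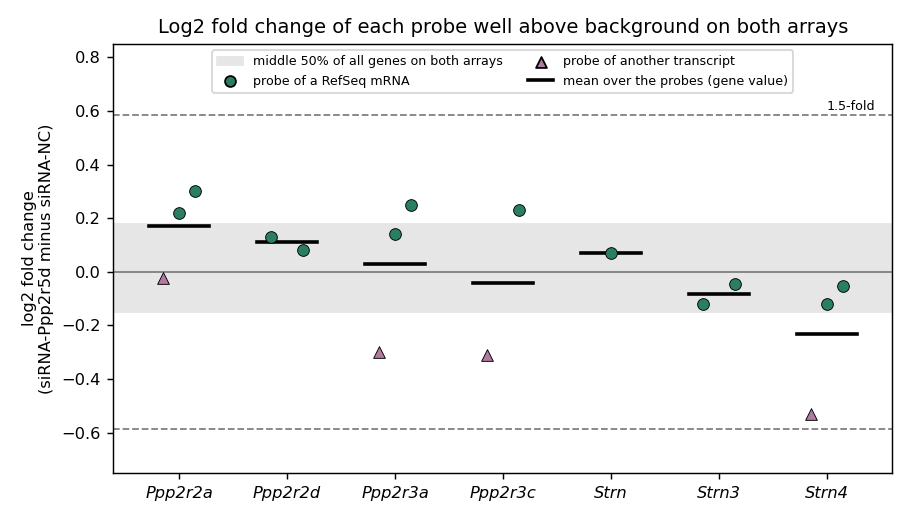
Log2 fold change (siRNA-*Ppp2r5d* minus siRNA-NC, scaled to the 75th percentile) of each probe of the 7 genes read on both arrays, with circles for RefSeq mRNAs, triangles for other transcripts, a black line at the mean over the probes, a grey band for the middle 50% of all genes and dashed lines at 1.5-fold. Probes of *Ppp2r2d* and of *Strn3* lie within 0.048 and 0.07 of each other, while those of *Ppp2r3a*, *Ppp2r3c* and *Strn4* spread over 0.55, 0.54 and 0.48.

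Across the members, 4 of the 7 measured genes were above 0 and 3 below, with a median log2 fold change of 0.03 and a range from -0.23 to 0.17. The median of all 20350 genes read on both arrays was 0.026, with quartiles of -0.15 and 0.18. None of the 7 genes was past 2-fold, beside 1.96% of all genes (0.885% higher and 1.07% lower). None was past 1.5-fold either, beside 8.00% of all genes (3.36% higher and 4.64% lower). Of all genes, 63.9% were within 0.23 of 0, the largest size among the members. By probe, 8 of the 16 were above 0 and 8 below, with none past 2-fold (1.83% of all probes read on both arrays) or past 1.5-fold (8.13%). Before scaling, 12 of the 16 probes were dimmer with siRNA-*Ppp2r5d* and 4 brighter, so the directions of single genes depended on the scaling. Scaled to the 10 spike-in probes, which set the arrays to equal amounts of added RNA, the 7 genes ranged from -0.45 (*Strn4*) to -0.047 (*Ppp2r2a*), all below 0, and the median of all genes was -0.19. *Ppp2r2a*, *Ppp2r2d*, *Ppp2r3a* and *Strn* were the genes whose sign differed there. *Strn4* and *Strn3* were below 0 under each of the 11 settings computed, with *Ppp2r2a* above both. *Strn3* and *Strn4* did not differ beyond the spot error where each was read by its brightest probe (-0.047 and -0.051) or by RefSeq mRNA probes alone (-0.082 and -0.085).

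**Figure D3:**
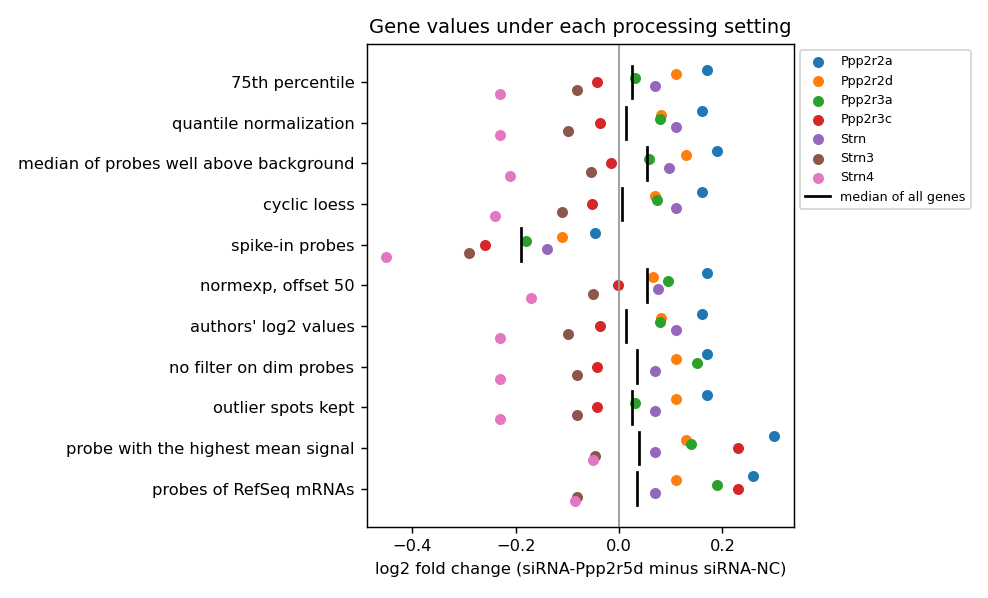
Log2 fold change (horizontal axis) of the 7 genes under each processing setting (vertical axis), with 1 point per gene and a black line at the median of all genes. The points stay within -0.45 and 0.30 in every setting and move left together with the median of all genes under spike-in scaling.

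The partners that share the core with these subunits were set beside them. The catalytic subunit *Ppp2ca* had 9557 with siRNA-NC and 8674 with siRNA-*Ppp2r5d*, a log2 fold change of 0.053, and *Ppp2cb* had 10063 and 9406, a log2 fold change of 0.095. Of the scaffold genes, *Ppp2r1a* stood at 0.38 (probes 0.48 and 0.29) and *Ppp2r1b* at -0.19. Apart from the targeted *Ppp2r5d*, the B56 subunits *Ppp2r5a*, *Ppp2r5b*, *Ppp2r5c* and *Ppp2r5e* ranged from -0.03 to 0.15. The 7 B55, B'' and striatin genes described above, a larger number of genes, ranged from -0.23 to 0.17. Probes spread from -0.27 to 0.50 in *Ppp2r5e*, from -0.19 to 0.31 in *Ppp2r5c* and from 0.031 to 0.10 in *Ppp2r5a*. Under spike-in scaling, which moved all genes by -0.21, the 4 B56 genes other than *Ppp2r5d* were all below 0, from -0.24 to -0.065.

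In the STRIPAK list, which holds 17 genes that assemble with striatins, 13 were read on both arrays, with a median log2 fold change of 0.11. Of these, 10 were above 0 and 3 below, beside 54.2% of all genes above 0. None was past 1.5-fold, beside 8.00% of all genes. The highest were *Map4k4*, a Ste20-like kinase, with 0.38, *Cttnbp2nl*, a cortactin-binding partner of striatin, with 0.32, and *Sike1*, an adaptor, with 0.26. Among the genes below 0 were *Fgfr1op2* with -0.073 and the MST1 kinase gene *Stk4* with -0.011. The probes of *Fgfr1op2* spread from -0.60 to 0.37. Under spike-in scaling, which moved all genes by -0.21, 4 of the 13 were above 0 and 9 below. *Strip2*, *Cttnbp2*, *Stk26* and *Tnik* were not read on both arrays.

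The B55 regulators comprise the Greatwall kinase gene *Mastl*, the inhibitors *Ensa* and *Arpp19* that it switches on in mitosis, the inhibitors *Fam122a* and *Fam122b*, and the IER proteins, which bring B55 to other proteins. All 8 were read on both arrays, with a median log2 fold change of 0.033, 5 above 0 and 3 below. The highest were *Ier5l* with 0.13, *Ier5* with 0.11 and *Ensa* with 0.078. *Mastl* had -0.54, with 4 probes from -0.79 to -0.18 at intensities of 25.4 to 211 with siRNA-NC, and *Fam122b* had -0.14. *Ier2* had -0.62 and was past 1.5-fold, as were 4.64% of all genes in the same direction. Its probes differed, with 37259 and 28926 for NM_010499, a log2 fold change of -0.17, and 2644 and 1099 for AK032692, a log2 fold change of -1.07. With RefSeq mRNA probes alone or the brightest probe *Ier2* was not past 1.5-fold, at -0.17. With the brightest probe *Mastl* was past it, at -0.62, beside 8.29% of all genes in either direction. With normexp, a background correction that adds 50 to every intensity, *Mastl* was at -0.15. The offset draws the values of dim probes toward 0, and 2.89% of all genes were past 1.5-fold. Under spike-in scaling, which moved all genes by -0.21, all 8 were below 0. Both *Ier2* and *Mastl* were past 1.5-fold there, beside 12.2% of all genes in either direction. With quantile normalization 3 were above 0 and 5 below.

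Genes whose products are known substrates of PP2A-B55 had a median log2 fold change of -0.14, with 7 of 9 below 0, beside 45.8% of all genes. *Prc1*, which bundles the microtubules of the central spindle, had -0.86 and was past 1.5-fold, with 4 probes from -0.95 to -0.69. Its probes for NM_145150 had 5636 and 1901 with siRNA-NC and 3064 and 861 with siRNA-*Ppp2r5d*. The pocket protein gene *Rbl1* (p107) had -0.51, with probes from -1.13 to -0.065. The tau gene *Mapt* had -0.39, with probes from -0.78 to -0.026. These *Mapt* probes were dim, at 50.4, 36.1 and 32.6 with siRNA-NC. The number of these genes past 1.5-fold, 1 as reported, was 3 under spike-in scaling (*Prc1* -1.08, *Rbl1* -0.72 and *Mapt* -0.61). It was 2 with the brightest probe (*Rbl1* -1.13 and *Prc1* -0.69), with 1 past 2-fold in each of these settings. Of all genes, 8.00% were past 1.5-fold as reported, 12.2% under spike-in scaling and 8.29% with the brightest probe. Past 2-fold, the shares of all genes were 1.96%, 2.81% and 2.1%. With normexp, whose offset draws the values of dim probes toward 0, *Mapt* was at -0.018. The highest were *Ctnnb1* (beta-catenin) with 0.16, *Akt1* with 0.0085 and *Tgfbr1* with -0.034. With normexp background correction, 4 of the 9 were above 0 and 5 below. Under spike-in scaling, which moved all genes by -0.21, all 9 were below 0.

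Of the 6 relatives and partners of the B'' subunits, 4 were read on both arrays. *Cdc6*, a replication licensing factor that a B'' subunit brings to PP2A, was past 2-fold, as were 1.07% of all genes in the same direction. Its probes had 78.3 and 130 with siRNA-NC and 18.1 and 39.3 with siRNA-*Ppp2r5d*, log2 fold changes of -1.92 and -1.53, a mean of -1.73, or 3.31-fold lower. With normexp background correction *Cdc6* was not past 2-fold, at -0.69. The normexp offset of 50 draws dim probes such as these toward 0, and 0.491% of all genes were past 2-fold there. The B'' gene *Ppp2r3d* had 7098 and 4759 with 1 probe and 335 and 254 with the other, a log2 fold change of -0.30, and *Lpp*, a partner at focal adhesions, had -0.48 with 6 probes from -0.89 to -0.19. *Mcm3ap*, the gene of GANP, a partner of G5PR, had 0.051. *Nkd1*, read with siRNA-NC alone, at 17.1, was at least 1.11-fold lower. *Ryr2*, the calcium release channel that PR130 is known to join, was read by 1 of 3 probes and with siRNA-*Ppp2r5d* alone. It had 19.3, which is at least 1.48-fold higher. Both bounds rest on 1 dim spot, at intensities where the median SD between spots was 0.21. For *Nkd1* the bound, a log2 fold change of -0.15, is smaller than that SD.

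**Figure D4:**
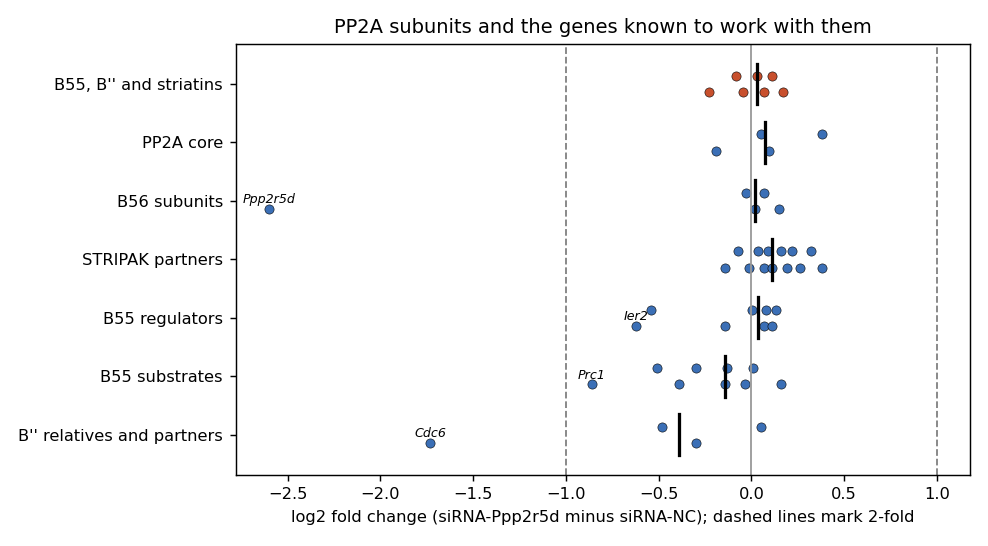
Log2 fold change of each gene read on both arrays, by list, with a black line at the median of each list and dashed lines at 2-fold. The 7 genes of the first line (*Ppp2r2a*, *Ppp2r2d*, *Ppp2r3a*, *Ppp2r3c* and the striatins) lie between -0.23 and 0.17, and the points farthest to the left are *Ppp2r5d* at -2.60 and *Cdc6* at -1.73.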

How the data were processed

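RNA of 2 cultures was measured on 2 one-colour microarrays, grouped by the labels' treatment. The authors deposited the intensity of each spot from Agilent Feature Extraction 10.7.1.1, which is background-corrected but not yet normalized, and a table of log2 values, which matched a quantile normalization of the log2 intensities (100% of values within 0.01). Its column medians were 5.02 and 5.02.

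Controls were left out, as were spots that the scanner software marks as outliers (126 on the siRNA-NC array, 95 on the other), spots of a probe were averaged, and each array was scaled to its 75th percentile. The value of a gene is the mean over its probes well above background on both arrays. For a probe read on 1 array, the other was set to its own signal or to the array's dimmest signal well above background, whichever was higher. No test was run. The number of arrays limits the precision.

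The members and lists were chosen with earlier results of these data known. All 9 members are named with every probe, and *Ppp2r5d*, the core and the B56 subunits by gene. In the other lists, the 3 highest and 3 lowest genes are named, or all where there were 6 or fewer, and no gene for likeness of pattern. Of the genes so chosen, 1 is not reported here. A name outside this rule was chosen after its value was seen. Alternatives were other scalings, normexp with an offset of 50, the log2 table, no filter on dim probes, outlier spots kept and the brightest probe. The alternative with RefSeq mRNA probes alone was chosen after seeing the data. The calculation was tested on simulated data. Probe names are those of the array design, and all 9 members are in the RefSeq gene table. Calculations used R 4.3.3 with limma 3.58.1, BLAST 2.17.0 (blastn, word size 7) and Python 3.11.15 with pandas 2.3.3, NumPy 2.4.6 and matplotlib 3.10.9.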

Additional observations from a re-analysis of the deposited data

How the results depend on the processing

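*Ppp2r5d* kept its direction and stayed past 2-fold, and 0 members were past 2-fold or 1.5-fold, under each of the 10 alternatives. The median log2 fold change of the members, 0.03 as reported, was 0.08 with quantile normalization and with the authors' log2 values, 0.069 with cyclic loess and without the filter on dim probes, 0.13 with the brightest probe of each gene, 0.11 with RefSeq mRNA probes alone and -0.18 under spike-in scaling. The last moved all genes by -0.21. *Ppp2r3c* was at 0.23 with the brightest probe and with RefSeq mRNA probes alone, since both settings leave only its probe for NM_021529. Causes of the other shifts were not tested. Without the filter on dim probes, 5.6% of all genes were past 2-fold, and with normexp 0.491%. Over the 11 settings *Ppp2r3a* ranged from -0.18 (spike-in scaling) to 0.19 (RefSeq mRNA probes alone). The probes that make its reported value were dim, 48.6 to 75.8 with siRNA-NC, which limits what can be read of it. Its probe nearest to 14.9, the one for ENSMUST00000188612, is left out of that value. No replicate could be left out. No paired analysis was possible because each condition has 1 array.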

Other observations

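Probes of the members differed by the kind of transcript they were designed on, a division chosen after the values were seen. The 12 probes for RefSeq mRNAs had a median log2 fold change of 0.11, from -0.12 to 0.30, with 4 below 0. The 4 probes for other transcripts (a GenBank clone or an Ensembl transcript) had a median of -0.31, from -0.53 to -0.024, with 4 below 0. They leave out the *Ppp2r3a* probe for ENSMUST00000188612, which was read with siRNA-*Ppp2r5d* alone and was at least 1.28-fold higher. Within a gene, the other transcripts lay below the RefSeq probes in 4 of 4 members, by -0.29 in *Ppp2r2a*, -0.50 in *Ppp2r3a*, -0.54 in *Ppp2r3c* and -0.45 in *Strn4*. The same sign was found in 65.9% of the 3113 genes of the array with both kinds of probe, with a median difference of -0.12. At intensities of 50 to 500, where all 4 of these probes lie, the 6 RefSeq probes of the members had a median of 0.076 with 2 below 0. In the same range of intensity, 57.9% of the 5099 probes of the array for other transcripts and 51% of the 6300 for RefSeq mRNAs were below 0.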
